A study of Rattus norvegicus with 12 samples.

Results

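The 10 genes described here, Fos, Fosb, Jun, Junb, Jund, Egr1, Atf3, Ier2, Dusp1 and Zfp36, are immediate-early genes that are often read as a sign of how liver cells were handled before sequencing. They were taken by name from the 32883 genes in the deposited count matrices, and all 10 are present. Their levels were compared between enzymatically isolated liver cells, nuclei from frozen liver and intact liver sections, and between the LEW and DA strains, in every cell type that marker genes could identify.

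Immediate-early genes are transcribed within minutes of a stimulus from factors already present in the cell, without new protein synthesis, and their transcripts are short-lived. Kinase signalling acts on serum response factor, its ternary complex partners and CREB at their promoters. Fos, Fosb, Jun, Junb and Jund encode subunits of the AP-1 transcription factor, of which Jund is the member expressed most steadily in resting cells. Egr1 is a zinc finger factor, Atf3 is a stress-induced repressor of the ATF/CREB family and Ier2 is a small nuclear protein. Dusp1 is a phosphatase that switches off MAP kinases, and Zfp36 (tristetraprolin) binds AU-rich transcripts and speeds their decay, so that both act as feedback on the response. In liver these genes are known to respond to partial hepatectomy, to reperfusion and to warm collagenase digestion.

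Promoter sequence was available for 7 of the 10 genes in the RefSeq table of build GRCr8, and Fos, Jun and Atf3 are named only. The cAMP response element TGACGTCA, searched on both strands, was present in 3 of the 7 promoters and in 1.83% of all 33469 promoters of the same length (250 bases before to 50 after the start of the gene). These 3 promoters are shown because they hold the full element that CREB and ATF factors bind; the strand is that of the gene, and the capitals mark the element. It begins 124 bases upstream of the start in Dusp1 (chr10:17184603-17184902, plus strand), 221 bases in Jund (chr16:18769722-18770021, minus strand) and 66 bases in Ier2 (chr19:40399123-40399422, plus strand).
Dusp1: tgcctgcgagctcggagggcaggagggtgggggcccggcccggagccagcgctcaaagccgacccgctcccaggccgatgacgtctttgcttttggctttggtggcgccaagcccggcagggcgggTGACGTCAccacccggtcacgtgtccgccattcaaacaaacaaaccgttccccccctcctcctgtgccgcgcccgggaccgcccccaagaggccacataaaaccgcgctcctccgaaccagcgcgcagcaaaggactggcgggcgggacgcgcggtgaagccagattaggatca
Jund: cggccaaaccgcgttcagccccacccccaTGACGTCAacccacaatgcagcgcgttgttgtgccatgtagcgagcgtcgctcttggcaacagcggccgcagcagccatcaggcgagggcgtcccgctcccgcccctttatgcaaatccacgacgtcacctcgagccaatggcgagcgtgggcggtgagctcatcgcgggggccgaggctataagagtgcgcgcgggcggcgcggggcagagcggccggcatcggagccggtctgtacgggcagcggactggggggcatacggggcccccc
Ier2: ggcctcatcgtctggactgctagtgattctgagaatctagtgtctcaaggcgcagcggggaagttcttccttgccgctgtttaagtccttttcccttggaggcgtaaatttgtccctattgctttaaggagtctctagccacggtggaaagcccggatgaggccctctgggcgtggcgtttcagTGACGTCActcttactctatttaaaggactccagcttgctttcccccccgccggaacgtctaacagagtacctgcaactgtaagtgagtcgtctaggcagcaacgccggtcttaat
The shorter letters TGACG, which every full element contains, were found in 5 of the 7 promoters and in 21.2% of all. The AP-1 letters TGANTCA were in 0 of the 7 and in 7.33% of all. The serum response element was in 2 of the 7, Egr1 and Zfp36, against 1.64% of all promoters, and the EGR letters GCGGGGGCG in 1, Zfp36, against 2.73%. A match describes the letters of this window only.

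Total liver homogenate (TLH) cells came from 2 DA and 2 LEW rats whose livers were flushed and then digested by warm two-step collagenase perfusion, and were sequenced with 10x Genomics 3′ version 2 chemistry. Nuclei were extracted without collagenase from snap-frozen liver of 2 DA and 2 LEW rats, immune-enriched cells from the same kind of digest as TLH were depleted of hepatocytes and red cells in 1 rat of each strain, and both used version 3 chemistry. Visium sections of Wistar liver (n = 2, from 2 rats) were frozen tissue read on version 1 slides. All rats were healthy males without experimental treatment or engineered alleles, and a replicate is 1 library per rat. By the study's methods, rats were anaesthetised with isoflurane and given heparin. The median lobe was tied before a piece of it was taken and frozen for nuclei. Lobe sampled, frozen storage, isolation, chemistry, sequencer and cell compartment change together between TLH cells and nuclei. Their parts in a difference therefore cannot be told apart. The labels give TLH rats an age of 8 to 10 weeks, the names of the deposited tables hold 10 weeks for DA, 13 weeks for LEW and 9 weeks for the immune-enriched rats, and the study's methods give an older age matched between strains. If the names are right, strain and age cannot be told apart in TLH cells. Libraries are called DA-1, DA-2, LEW-1 and LEW-2 within each kind, and values below follow this order. A shared number is not known to mean a shared rat, and the study describes the nuclei as coming from additional rats.

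Counts are unique molecular identifiers (UMIs), and levels are CPM values, the UMIs of a gene scaled to a common total over all genes in the same cells. Over all deposited barcodes, depth ranged from 61441846 to 92484173 UMIs in the TLH libraries and from 8039397 to 15186970 in the nuclei. It was 48255870 and 60005133 in the immune-enriched rats and 34449562 and 34827603 in the sections. In TLH libraries 39498 to 57776 barcodes fell below the UMI limit and were left out of the gates. Kept cells held a median of 1794 to 2545.5 UMIs in TLH libraries and 1541.5 to 2059 in nuclei. After the cell filters, 3844 to 7112 cells remained per TLH library, 2205 to 5262 per nuclei library, and 1163 and 2677 immune-enriched cells. The nuclei libraries shared 1 to 6 barcodes in pairs. Cells were placed in gates by how many genes of a marker list they held. A cell in more than 1 gate, the hepatocyte and myeloid gates aside, was left out. Gates with at least 20 cells in every rat were tested: hepatocyte, Kupffer, endothelial and mesenchymal in both kinds, and MHC II/Lyz2 myeloid and NK/T in TLH cells only. Every Kupffer, endothelial, mesenchymal and hepatocyte marker in the data was above 0 in its own gate in all TLH and nuclei libraries. This was close to fixed in advance, because the gates were set on these markers. Hepatocyte RNA was present in the other gates as well: the 16 hepatocyte markers summed to 104154 to 124391 CPM in TLH hepatocytes and still to 63468 to 83974 CPM in TLH Kupffer cells, 84125 to 103211 in endothelial cells and 83792 to 105533 in mesenchymal cells. The part of this RNA in the gate values below was not tested.

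Nuclei, not digested cells, held the highest summed levels of the group. Dusp1 alone made up 42.7%, 51.2%, 53.5% and 44.5% of the summed UMIs in TLH hepatocytes. Taken singly in hepatocytes, 3 members were lower in every TLH library than in every nuclei library, and 7 overlapped. In hepatocytes the sum of 10 members was 1678, 1838, 810 and 1131 CPM in TLH cells and 5221, 6051, 2695 and 8202 CPM in nuclei, with no overlap. In Kupffer cells the sum of 10 members was 1426, 1849, 631 and 753 CPM in TLH cells against 8936, 6261, 5136 and 8652 CPM in nuclei. Mesenchymal nuclei held the top value, 10733 CPM in DA-1, and the lowest nuclei value was 2695 CPM in the LEW-1 hepatocytes. Whole Visium sections stood at 766 and 767 CPM, and whole TLH libraries at 1636, 1889, 784 and 1040 CPM for the sum of 10 members. Every TLH library was thus above both sections, although LEW-1 exceeded them by little. The nuclei of LEW-1 stood apart as low: their whole-library sum of 10 members was 2882 CPM beside 5518 in DA-1, 6209 in DA-2 and 7817 in LEW-2.

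**Figure D1:**
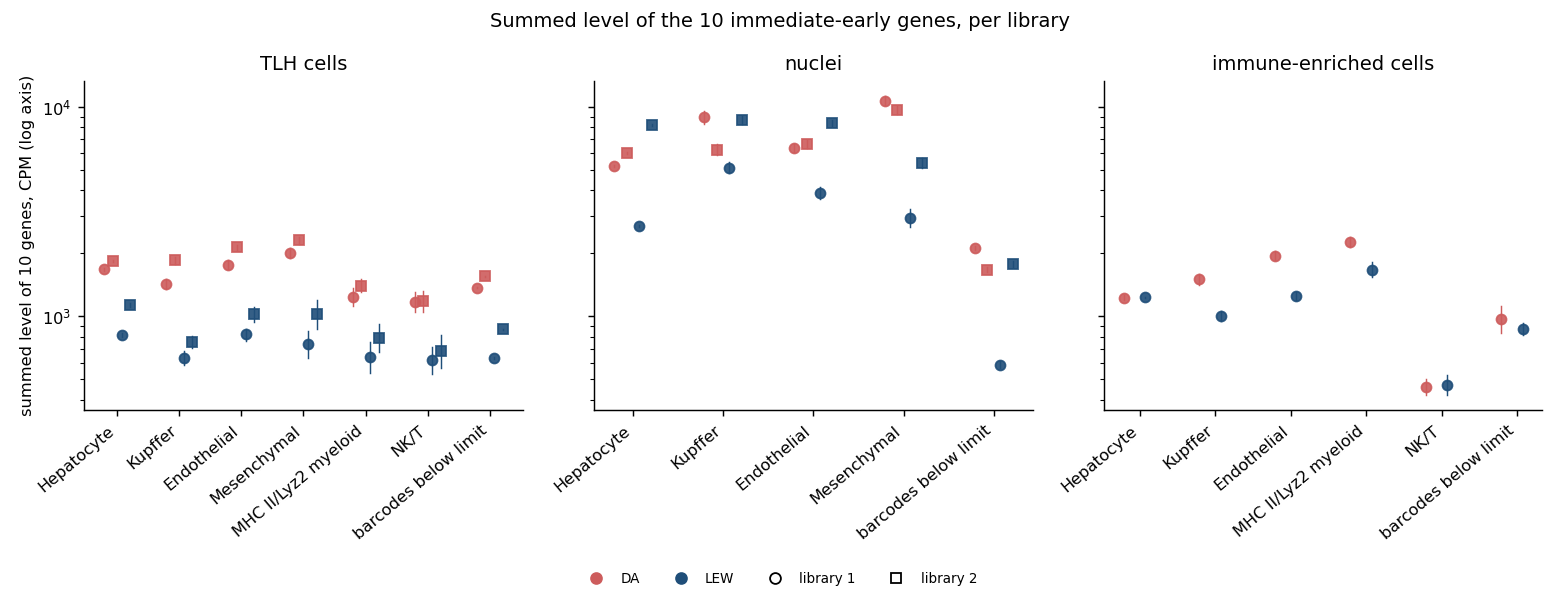
Summed level of the 10 genes (CPM, log axis) per library, in each gate of TLH cells, immune-enriched cells and nuclei. Colours mark strains and symbols libraries; in hepatocytes the nuclei lie between 2695 and 8202 CPM and the TLH cells between 810 and 1838 CPM.

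Whole libraries place the sections beside cells and nuclei. In bulk sections, fewer cells of a type and less RNA per cell cannot be told apart. Fos, the inducible AP-1 subunit that defines the class, was close to absent from the sections, at 0.261 and 0.402 CPM (9 and 14 UMIs). Its level was 43.0, 52.9, 8.45 and 16.2 CPM in TLH cells and 244, 136, 2.76 and 50.7 CPM in nuclei, so that every library of isolated cells or nuclei exceeded both sections. The fitted difference was 6.15 ± 2.03 (log2 fold change ± SE, edgeR adjusted p = 0.038) for TLH cells over sections and 7.16 ± 2.10 (adjusted p = 0.014) for nuclei over sections. Fosb, its close relative, stood at 0.581 and 0.804 CPM in the sections and did not pass either test (adjusted p = 0.23 and 0.057 by edgeR). Junb was 10.8 and 13.3 CPM in the sections, 133, 91.4, 31.3 and 95.9 CPM in TLH cells and 426, 774, 153 and 1267 CPM in nuclei. The Junb levels did not overlap between any of these kinds, and Junb was higher than in sections by 2.54 ± 0.74 (adjusted p = 0.018, edgeR) in TLH cells and by 4.56 ± 0.84 (adjusted p = 0.00054) in nuclei on the log2 scale. Egr1 was 6.24 and 8.53 CPM in the sections and 28.3 to 125 CPM in TLH cells, a log2 difference of 3.30 ± 0.90 (adjusted p = 0.015, edgeR).

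The other members did not pass the test between TLH cells and sections. Dusp1, a feedback gene, was already abundant in the sections, at 481 and 445 CPM, within the TLH values of 612, 847, 386 and 431 CPM, and its TLH against section difference was -0.03 ± 0.33 (adjusted p = 0.96, edgeR). Only nuclei were higher in Dusp1, at 2494, 2775, 1744 and 3108 CPM (log2 difference over sections 1.29 ± 0.35, adjusted p = 0.0044). Zfp36 stood at 72.7 and 85.9 CPM in the sections and at 210, 273, 84.3 and 116 CPM in TLH cells, where LEW-1 overlapped the sections, and the difference missed the threshold (0.78 ± 0.38, adjusted p = 0.11, edgeR). Jund, the steady AP-1 subunit, kept nearly the same level in sections (79.9 and 80.9 CPM) and nuclei (97.7, 85.2, 72.6 and 91.9 CPM). Over sections, the log2 differences of TLH cells were 0.76 ± 0.39 for Jun, 0.98 ± 0.85 for Atf3, 0.54 ± 0.30 for Jund and 0.23 ± 0.49 for Ier2 (edgeR adjusted p = 0.13, 0.39, 0.17 and 0.74).

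In all, TLH cells were higher than sections in 3 of 10 members (Fos, Junb and Egr1) and lower in 0. Of the 13407 genes tested, 24.0% were higher, near the share of members, and 18.7% lower. Nuclei were higher than sections in 6 (Fos, Jun, Junb, Egr1, Atf3 and Dusp1), against 35.0% of all genes, and lower in 1, Jund, against 33.0%. The Jund call depends on scaling: its log2 difference was -1.03 ± 0.29 with TMM scaling (trimmed mean of M-values, which sets most genes to no change) and 0.11 with library size alone. Immune-enriched libraries were higher than sections in 3 of 10 members, Fos, Junb and Egr1, near the 29.2% of all genes that were higher (21.1% lower). They were lower than nuclei in 3 of 10, Jun, Junb and Dusp1, near the 29.8% of all genes that were lower (30.9% higher). Their cell mix differed, with 188 of 1163 kept cells in the hepatocyte gate in DA and 1519 of 2677 in LEW. The whole-library contrasts share libraries, and the sections are Wistar while the other libraries are DA and LEW. Platform and animals also differ between the sections and the other libraries, and the sequencer differs for TLH cells. The parts of these in a difference cannot be told apart. With either section left out, 0 of the 3 calls of TLH cells over sections and 0 of the 3 of immune-enriched libraries over sections remained, while the log2 differences of TLH cells over sections, with any 1 library or section left out, lay between 5.73 and 6.46 for Fos, 3.09 and 3.601 for Egr1 and 2.30 and 2.82 for Junb. Without the DA immune-enriched library 1 call over sections was made. With Visium section 2 left out, 4 calls of nuclei against sections (3 higher, 1 lower) were made in place of 7.

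**Figure D2:**
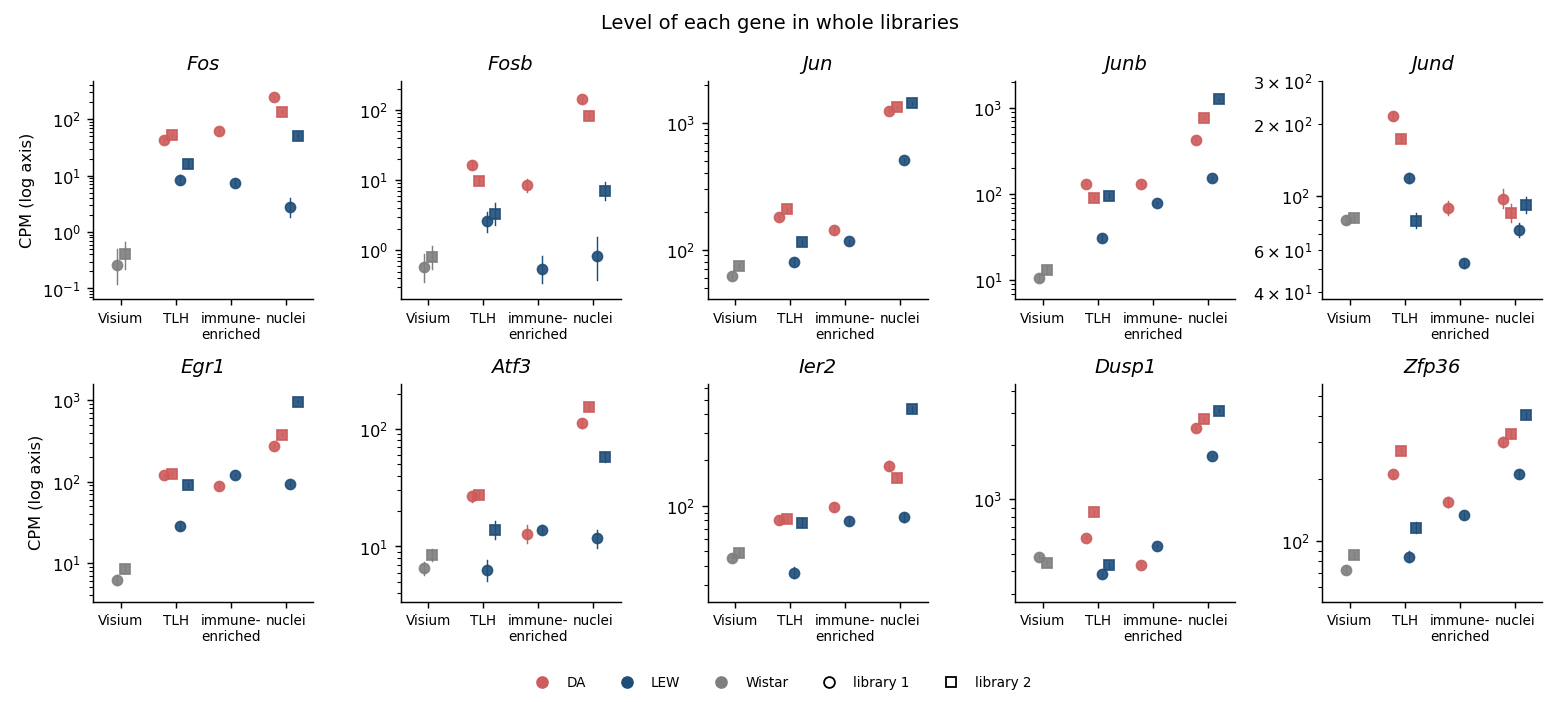
Level of each gene (CPM, log axis) in whole libraries of Visium sections, TLH cells, immune-enriched cells and nuclei; bars are 95% Poisson intervals, which cover counting error only. Fos lies at 0.261 and 0.402 CPM in the sections and at 2.76 to 244 CPM in nuclei, while Jund spans 72.6 to 97.7 CPM in nuclei beside 79.9 and 80.9 CPM in the sections.

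TLH cells and nuclei were then compared gate by gate with strain in the model, to ask which members differ between the 2 preparations in the same cell type. Jun, the partner of Fos in AP-1, was lower in TLH cells in all 4 gates. In hepatocytes Jun stood at 189, 213, 83.2 and 127 CPM in TLH cells and at 1268, 1334, 474 and 1508 CPM in nuclei, without overlap, a log2 fold change of -2.07 ± 0.29 (edgeR adjusted p = 2.9e-05). In mesenchymal cells the Jun difference was -2.60 ± 0.24 (adjusted p = 5.6e-10, edgeR), with 61.6 to 201 CPM in TLH cells and 461 to 1614 CPM in nuclei. Junb was also lower in all 4 gates, with log2 fold changes from -2.37 to -2.10. The Junb call was lost in hepatocytes without TLH DA-2 (-2.02), nuclei DA-2 (-2.05) or nuclei LEW-2 (-1.20), and in endothelial cells without TLH DA-2 (-2.15), TLH LEW-2 (-2.12) or nuclei DA-2 (-2.21). Hepatocyte Junb was 126, 73.2, 26.3 and 98.1 CPM in TLH cells and 390, 744, 131 and 1310 CPM in nuclei, and LEW-1 nuclei were the lowest of the nuclei but above the highest TLH value.

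Dusp1 was the most abundant member in hepatocytes of both kinds. It stood at 717, 942, 433 and 504 CPM in TLH hepatocytes and at 2556, 2864, 1652 and 3314 CPM in nuclei. That was lower in TLH cells by 1.18 on the log2 scale (SE 0.25, edgeR adjusted p = 0.00078). The gap was wider in Kupffer cells, where Dusp1 was 379, 724, 195 and 210 CPM in TLH cells and 3099, 2225, 2963 and 3189 CPM in nuclei (-2.22 ± 0.35, adjusted p = 7.2e-05, edgeR). Whether the gap differs between the gates was not tested. Zfp36, the other feedback gene, was not called in any gate, with log2 differences from -0.46 ± 0.23 in mesenchymal cells to -0.14 ± 0.27 in hepatocytes.

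Fos itself was called in Kupffer cells alone. Kupffer Fos was 81.6, 148, 24.5 and 25.1 CPM in TLH cells and 1708, 631, 13.6 and 235 CPM in nuclei, where LEW-1 rested on 3 UMIs, and the log2 difference was -2.02 ± 0.57 (adjusted p = 0.0088, edgeR). The groups overlapped through LEW-1, the only nuclei library below the TLH values, and the call was lost without DA-1 nuclei (-1.48) or LEW-2 nuclei (-1.58) and with no filter on low counts (-1.81). In hepatocytes Fos was 17.4, 18.3, 5.34 and 10.5 CPM in TLH cells and 134, 61.4, 1.29 and 25.2 CPM in nuclei, and the difference of -0.79 ± 0.88 was not called (adjusted p = 0.45, edgeR). Without LEW-1 nuclei, the hepatocyte comparison called 7 members in place of 4, with Fos (-1.34), Fosb (-1.67) and Atf3 (-1.51) lower in TLH cells besides, and Fos was then called lower in endothelial (-1.19) and mesenchymal cells (-1.95) as well.

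Jund went the other way. It was the only member higher in TLH cells, in all 4 gates: 1.54 ± 0.22 in hepatocytes, 1.52 ± 0.26 in Kupffer cells, 1.22 ± 0.23 in endothelial cells and 1.05 ± 0.30 in mesenchymal cells (log2 fold change ± SE, edgeR adjusted p = 3.1e-05, 6.5e-05, 6.1e-05 and 0.0033). In CPM the kinds overlapped, with Jund at 218, 159, 114 and 79.0 CPM in TLH hepatocytes and 88.3, 85.5, 70.5 and 90.8 CPM in nuclei. The difference between the scales is the shift of all genes: with library size alone the median log2 fold change of all genes was -0.95 in hepatocytes, -0.95 in Kupffer cells, -0.96 in endothelial cells and -0.76 in mesenchymal cells, against -0.13 to -0.05 with TMM. With library size alone Jund was still called in hepatocytes (0.69) and Kupffer cells (0.62), but not in endothelial (0.39) or mesenchymal cells (0.42).

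Counted by gate, the hepatocyte comparison tested 10 members and found 3 lower (Jun, Junb, Dusp1) and 1 higher in TLH cells, where 37.8% of all genes were lower and 34.5% higher. Kupffer cells had 7 of 9 lower (Fos, Jun, Junb, Egr1, Atf3, Ier2 and Dusp1) against 31.9% of genes, and 1 higher against 33.1%; Fosb had too few UMIs to be tested. Endothelial cells had 5 of 10 lower (Fosb, Jun, Junb, Atf3, Dusp1) against 37.6% of genes, and 1 higher against 34.3%. Mesenchymal cells had 5 of 9 lower (Jun, Junb, Egr1, Ier2, Dusp1) against 37.3%, and 1 higher against 32.8%; Atf3 was not tested. The hepatocyte share lower was near that of all genes.

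**Figure D3:**
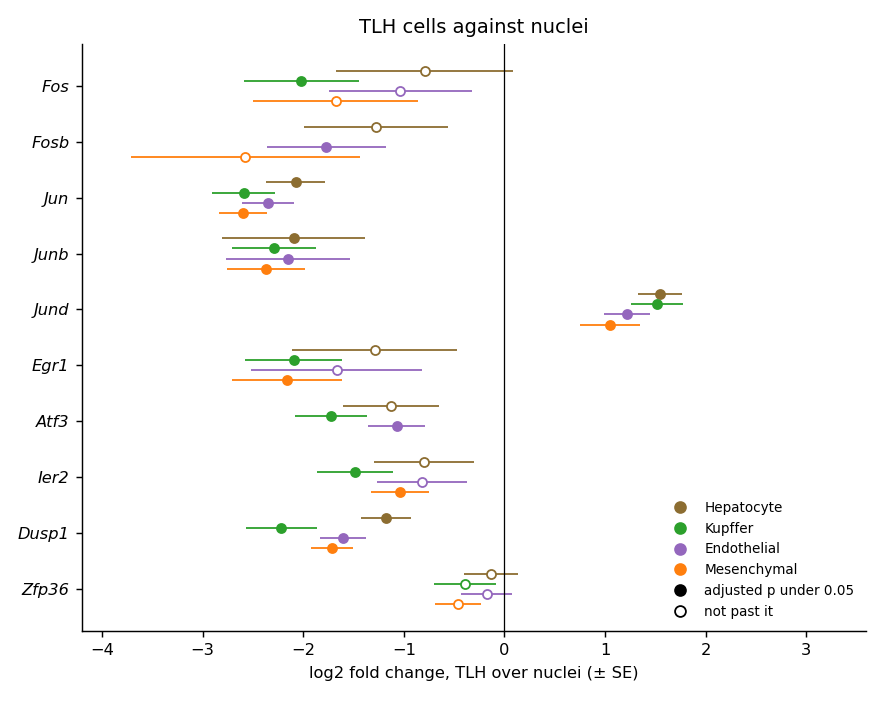
Log2 fold change of TLH cells over nuclei for each gene in 4 gates, with strain in the model and TMM scaling; bars are ± SE and filled points have an edgeR adjusted p under 0.05. Jun and Junb lie near or below -2 in every gate and Jund is the only gene above 0, between 1.05 and 1.54.

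Other lists of stress-related genes, chosen with earlier results of these data known, did not all follow the members. Of 41 other immediate-early genes, 17 of the 32 tested were lower in TLH hepatocytes and 3 higher, beside 37.8% of all genes lower and 34.5% higher (median log2 fold change -0.70, all genes -0.09). Those lower included Per1 (-5.05 ± 0.76), the JAK-STAT inhibitor Socs3 (-4.43 ± 0.78) and Trib1 (-3.29 ± 0.33), and those higher, named after their values were seen, were Cebpd (2.41 ± 0.35), Klf4 (1.29 ± 0.35) and Btg1 (0.63 ± 0.21). Heat shock genes were higher in TLH hepatocytes, 10 of 10 tested against 34.5% of all genes (median 1.31), with the mitochondrial co-chaperonin Hspe1 at 4.19 ± 0.38, the small heat shock protein Hspb1 at 3.18 ± 0.21 and the constitutive chaperone Hspa8 at 2.25 ± 0.25. The same list had 8 of 10 higher in Kupffer cells (33.1% of all genes), 10 of 10 in endothelial cells (34.3%) and 6 of 8 in mesenchymal cells (32.8%), and 0 lower in each. Against the sections, whole nuclei libraries had 10 of 11 heat shock genes lower and 0 higher (median -1.49, 33.0% of all genes lower), and whole TLH libraries 2 higher and 3 lower (median -0.17, 24.0% and 18.7% of all genes). Integrated stress response genes, which depend on ATF4, were lower in 4 of 6 in hepatocytes against 37.8% of all genes, led by Sesn2 (-1.52 ± 0.25), Chac1 (-1.36 ± 0.18) and Atf5 (-1.30 ± 0.21). Of the kinases and factors upstream, 7 of 16 were lower and 4 higher in TLH hepatocytes, shares near those of all genes (37.8% and 34.5%), with the ternary complex factor Elk4 at -1.46 ± 0.16.

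Between strains, both LEW rats lay below both DA rats in TLH cells for 6 to 10 of the 10 members in CPM, depending on the gate. Beside each such count stands the share of all genes with at least 10 UMIs over the 4 libraries that were lower in both LEW rats in the same way. In Kupffer cells, the resident macrophages of the liver, all 10 members were lower in both LEW rats than in both DA rats in CPM, against 22.7% of genes, and 6 of the 9 tested were called lower, against 4.16% of all genes; Fosb was not tested. Kupffer Fos was 81.6, 148, 24.5 and 25.1 CPM, so the lower DA rat was above both LEW rats (log2 fold change LEW over DA -2.28 ± 0.30, edgeR adjusted p = 0.0014). Kupffer Zfp36 was 207, 268, 85.0 and 93.0 CPM, again without overlap (-1.46 ± 0.19, adjusted p = 0.00019, edgeR). Kupffer Jun was 157, 173, 57.9 and 89.3 CPM (-1.21 ± 0.21, adjusted p = 0.0029, edgeR). Egr1 (-1.49 ± 0.25), Dusp1 (-1.49 ± 0.30) and Jund (-0.73 ± 0.18) were the other Kupffer calls, and all of the 6 but Jund were called whichever TLH library was left out.

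In hepatocytes the same direction was seen with fewer calls. Dusp1 was 717, 942, 433 and 504 CPM (-0.80 ± 0.17, adjusted p = 0.045, edgeR) and Zfp36 was 198, 237, 82.3 and 120 CPM (-1.08 ± 0.21, adjusted p = 0.038), and for both the strains did not overlap. They were the 2 members called of 10, against 2.24% of all genes lower. The strains did not overlap in CPM for 8 members, against 27.3% of genes lower in both LEW rats. One exception was Junb (126, 73.2, 26.3 and 98.1 CPM), where LEW-2 lay above DA-2. The other was Ier2 (67.2, 64.7, 30.04 and 75.2 CPM), where LEW-2 lay above both DA rats. The count of members called was 0 without LEW-1 and 6 without LEW-2.

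Endothelial cells had 6 of 9 members lower in LEW (Fos, Jun, Jund, Atf3, Ier2 and Zfp36), against 2.03% of all genes called lower, with Fosb not tested, and all 10 were lower without overlap, against 19.6%. Atf3 was 26.3, 36.2, 5.48 and 5.42 CPM there (-2.63 ± 0.41, adjusted p = 0.0014, edgeR), and Jun 194, 256, 85.8 and 97.5 CPM (-1.39 ± 0.20, adjusted p = 0.0008). Only Jun was called whichever library was left out, and without DA-2 the count was 2. Mesenchymal cells had 4 of 10 lower (Jun, Junb, Egr1, Zfp36), against 0.676% of genes called lower, and all 10 were lower without overlap, against 23.4%. Their Egr1 was 171, 273, 37.0 and 69.0 CPM (-2.17 ± 0.38, adjusted p = 0.013, edgeR). The count of members called was 7 without DA-2, 6 without DA-1 or LEW-2 and 3 without LEW-1, where the Jun (-1.17) and Junb (-1.13) calls were lost. In myeloid cells, where Fosb and Atf3 were not tested, Dusp1 was the 1 call among 8 tested (414, 564, 131 and 225 CPM, -1.49 ± 0.27, adjusted p = 0.012, edgeR; 0.993% of genes lower), and 3 members were called without DA-1 and 2 without LEW-2. Of the 9 members with at least 10 UMIs there, 7 were lower in both LEW rats (21.6% of genes) and Ier2 was higher in both (19.0%). In NK/T cells Dusp1 (290, 499, 155 and 190 CPM, -1.25 ± 0.28, adjusted p = 0.020, edgeR) and Zfp36 (177, 169, 97.1 and 54.4 CPM, -1.17 ± 0.30, adjusted p = 0.034) were called of 7 tested, against 2.03% of genes. The Dusp1 call was lost without DA-2 (-0.79) or LEW-1 (-1.03), and the Zfp36 call without DA-1 (-1.13), DA-2 (-1.16) or LEW-2 (-0.91). Fos, Fosb and Atf3 were not tested in NK/T cells, and 6 of the 9 members with at least 10 UMIs were lower in both LEW rats, against 19.8% of genes. The count of members higher in LEW was 0 in each of the 6 TLH gates, where 2.00% (hepatocyte), 3.20% (Kupffer), 1.83% (endothelial), 0.604% (mesenchymal), 1.10% (myeloid) and 1.45% (NK/T) of genes were higher.

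**Figure D4:**
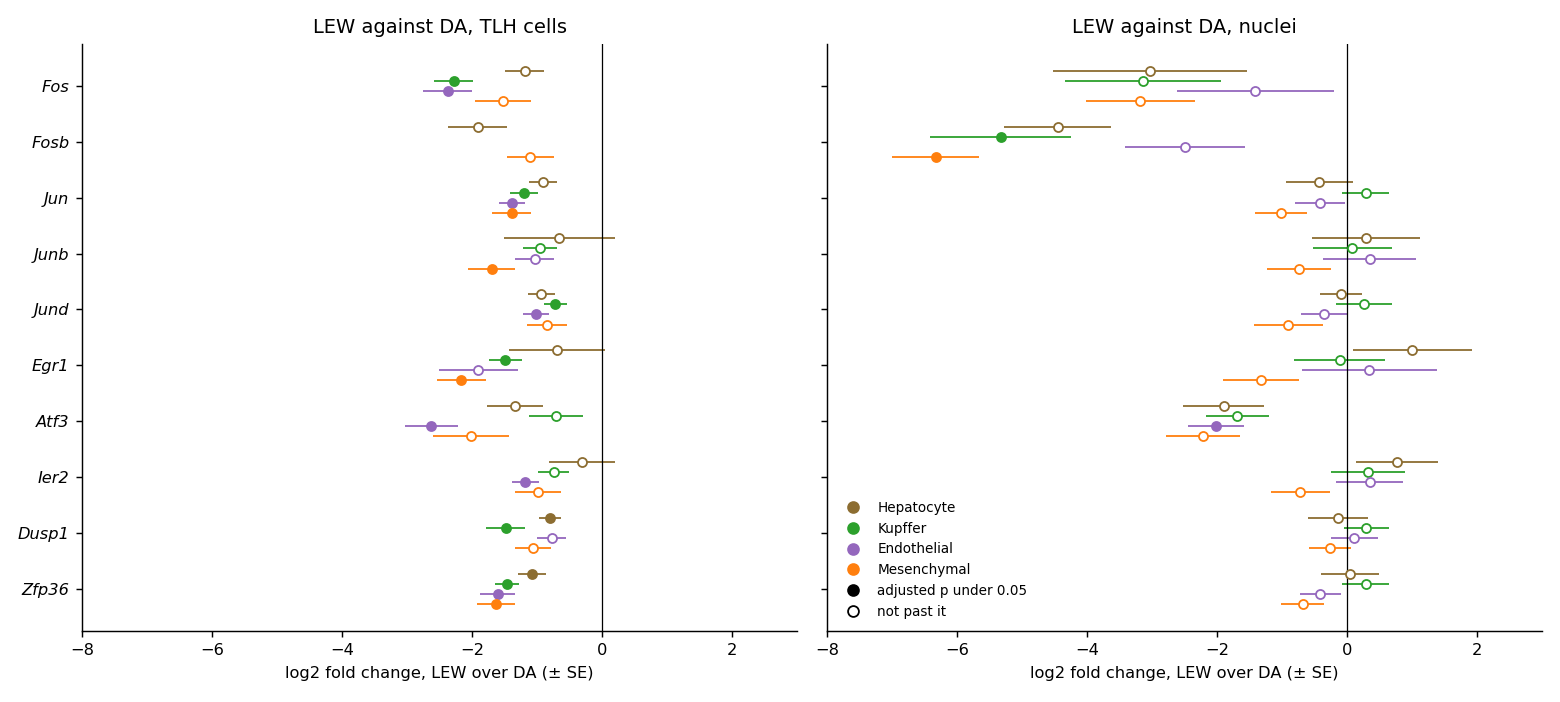
Log2 fold change of LEW over DA for each gene, in TLH cells and in nuclei, by gate; bars are ± SE and filled points have an edgeR adjusted p under 0.05. In TLH cells every called point lies below 0, and in nuclei 3 points are filled, Fosb in Kupffer and mesenchymal nuclei and Atf3 in endothelial nuclei.

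Barcodes below the UMI limit of their TLH library, which hold shallow cells and free RNA, moved with strain too. The sum of 10 members there was 1369, 1553, 634 and 866 CPM, and 8 of the 10 members were lower in both LEW rats than in both DA rats, against 26.6% of genes. The part of free RNA in the gate differences was not tested. Other immediate-early genes were lower in LEW for 6 of 30 tested in hepatocytes (2.24% of all genes) and 6 of 23 in Kupffer cells (4.16%), where 1, the interferon regulatory factor Irf1 (1.10 ± 0.20, named after its value was seen), was higher (3.20% of all genes). Those lower included the matricellular gene Ccn2 at -2.52 ± 0.56 in hepatocytes and the antiproliferative gene Btg2 at -1.43 ± 0.27. Heat shock genes had 0 calls by edgeR in each of the 6 TLH gates, and their medians lay between 0.00 and 0.19 on the log2 scale. At an unadjusted edgeR p under 0.05 there were 2 in hepatocytes (11 tested), 2 in endothelial cells (10 tested) and 0 in the others. The unadjusted counts are given without the share of all genes.

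In nuclei only 3 or 4 of the 10 members were lower in both LEW rats in 3 of the 4 gates, and mesenchymal nuclei were the exception. There 9 of the 10 members were lower in both LEW rats than in both DA rats, against 18.1% of genes, and the sum of 10 members was 10733, 9672, 2953 and 5397 CPM. The ratio of mean LEW to mean DA in that sum was 0.409, beside 0.408 in TLH mesenchymal cells, although 1 member was called. That count was 7 without LEW-2 (Fos, Jun, Junb, Egr1, Atf3 and Ier2 besides) and 2 without DA-1 or LEW-1. In hepatocyte nuclei 3 members were lower in both LEW rats (18.4% of genes), in Kupffer nuclei 3 (24.0%) and in endothelial nuclei 4 (19.2%). Hepatocyte nuclei had 0 of 10 members called by edgeR, against 0.710% of genes lower and 0.480% higher; 2 members, Fosb and Atf3, had an unadjusted p under 0.05, as did 1035 of 10426 genes, and DESeq2 called 1 member. Dusp1, one of the 2 members called in TLH hepatocytes, was 2556, 2864, 1652 and 3314 CPM in nuclei, with the LEW rats on either side of the DA rats (-0.14 ± 0.46, adjusted p = 0.95, edgeR). Egr1 was 187, 346, 82.6 and 1032 CPM and Junb 390, 744, 131 and 1310 CPM, again with LEW-1 lowest and LEW-2 highest. In these genes the LEW rats differed more from each other than the strains did. Other immediate-early genes had 4 of 32 lower and 0 higher in LEW hepatocyte nuclei (median -0.54, 0.710% of genes lower), among them the orphan nuclear receptors Nr4a3 (-6.22 ± 1.03) and Nr4a1 (-2.30 ± 0.35) and the matricellular gene Ccn2 (-3.37 ± 0.58). They had 3 of 20 lower in mesenchymal nuclei (0.411% of genes). Of 21 in Kupffer nuclei, 1 was lower, Rhob (1.18% of genes), and 1 higher, Sgk1 (1.02% of genes). In endothelial nuclei they had 0 calls by edgeR of 29 (0.287% of genes lower and 0.363% higher). There 10 had an unadjusted p under 0.05, a count given without the share of all genes.

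Fos, Fosb and Atf3 were the members lower in both LEW rats than in both DA rats in hepatocyte nuclei. Fosb was 51.1, 23.2, 0.322 and 3.65 CPM there (-4.45 ± 0.82, adjusted p = 0.054, edgeR). In mesenchymal nuclei Fosb was 2250, 1430, 0 and 35.6 CPM, from 327, 281, 0 and 9 UMIs. Both DA rats were far above both LEW rats, and the fitted difference was -6.33 ± 0.67 (adjusted p = 0.0017, edgeR; 0.411% of genes lower and 0.158% higher); its size depends on the prior count because LEW-1 was at 0. In Kupffer nuclei Fosb was 241, 59.0, 0 and 5.00 CPM, from 22, 10, 0 and 1 UMIs (-5.33 ± 1.08, adjusted p = 0.031; 1.18% of genes lower and 1.02% higher). The size of that difference also depends on the prior count, Fosb was no longer tested without DA-1, and 0 members were called there with DESeq2 or with 1 more marker per gate. Endothelial nuclei had Atf3 lower, at 114, 109, 11.7 and 37.1 CPM (-2.02 ± 0.43, adjusted p = 0.048, edgeR, beside 0.287% of genes lower and 0.363% higher), a call lost without LEW-1 (-1.54). Fos was 1734, 1191, 7.10 and 277 CPM in mesenchymal nuclei without passing the test (-3.18 ± 0.83, adjusted p = 0.20, edgeR). Its log2 difference was -2.30 without LEW-1 and -7.60 without LEW-2. Each of these fits leaves 1 LEW library and measures no spread between LEW rats, and -7.60 rests on the 7.10 CPM of LEW-1.

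Whether the strain difference was the same in cells and nuclei was tested as an interaction. In Kupffer cells Dusp1 and Zfp36 had a more negative LEW difference in TLH cells than in nuclei, with interactions of -1.78 ± 0.38 and -1.75 ± 0.38 on the log2 scale (edgeR adjusted p = 0.019 and 0.020), the 2 calls in a gate where 0.955% of genes had a more negative and 1.14% a more positive difference in TLH cells. Kupffer Zfp36 in nuclei was 405, 254, 368 and 375 CPM, without separation of the strains. In mesenchymal cells Fosb had the opposite pattern, with the LEW difference less negative in TLH cells (128, 80.4, 45.2 and 50.2 CPM) than in nuclei by 5.19 ± 0.82 (adjusted p = 0.033, edgeR; 0.0447% of genes). Hepatocytes and endothelial cells had 0 members called by edgeR or DESeq2, with 1 and 3 members at an unadjusted p under 0.05, as were 513 of 11385 and 710 of 7243 genes; 0.00878% of genes were called in hepatocytes, all with a more negative difference in TLH cells, and 0.0414% (more negative) and 0.0138% (more positive) in endothelial cells. No interaction call was kept with every library left out in turn: both Kupffer calls were lost without TLH DA-2, LEW-1 or LEW-2, the Fosb call was lost without TLH LEW-1 or LEW-2, and 6 Kupffer members were called without LEW-1 nuclei (Jun, Junb, Egr1 and Ier2 besides).

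The immune-enriched libraries hold 1 rat per strain and allow no test. In Kupffer cells Fos was 248 CPM in DA and 42.8 CPM in LEW (155 and 57 UMIs), a ratio of 0.173 with a 95% counting interval of 0.125 to 0.235. Junb stood at 302 and 163 CPM (0.539) and Zfp36 at 173 and 120 CPM (0.696, 0.542 to 0.897), while Dusp1 was 313 and 291 CPM (0.927, 0.779 to 1.11). Fos was lower in LEW also in endothelial cells (29.0 and 6.48 CPM) and myeloid cells (376 and 201 CPM). Not all genes followed. Kupffer Jund was higher in LEW, at 56.0 CPM in DA and 85.6 CPM in LEW (ratio 1.53, 1.04 to 2.30). Kupffer Jun was 86.3 and 118 CPM (1.37, 0.996 to 1.90) and Egr1 73.5 and 61.6 CPM (0.837, 0.577 to 1.23), with intervals that include 1. Jun, Jund and Egr1 had been called lower in LEW in TLH Kupffer cells. In hepatocytes the ratio for the sum of 10 members was 1.00 (0.975 to 1.03). Dusp1 and Zfp36 had been called lower in LEW in TLH hepatocytes. Their ratios in immune-enriched hepatocytes were 0.972 (0.934 to 1.01) and 0.793 (0.735 to 0.858). Ier2 in hepatocytes was 28.2 CPM in DA and 75.7 CPM in LEW, and Dusp1 in NK/T cells 16.9 and 70.6 CPM (17 and 50 UMIs, ratio 4.19, 2.37 to 7.74). The hepatocyte markers summed to 2269 CPM in the DA Kupffer cells and 24914 CPM in the LEW ones, and the part of this RNA was not tested. The median mitochondrial share was 14.2% in DA and 9.73% in LEW Kupffer cells. It was 26.2% and 10.4% in endothelial cells and 14.3% and 8.68% in myeloid cells, and its part was not tested. For the sum of 10 members, lymphoid cells were low in both rats, at 459 and 470 CPM in NK/T cells and 477 and 475 CPM in B cells, against 1225 and 1229 CPM in hepatocytes.

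Within a library, the members were divided among cell types by gene. Mesenchymal cells, which include the stellate cells, had the highest Fosb of the TLH gates, at 128, 80.4, 45.2 and 50.2 CPM against 7.26, 3.39, 1.48 and 1.15 CPM in hepatocytes of the same rats. That was a log2 difference of 4.24 ± 0.22 (edgeR adjusted p = 1.1e-80, rat as block), and the lowest mesenchymal value exceeded the highest hepatocyte value. Nuclei gave 4.85 ± 0.33 (adjusted p = 2.5e-47, edgeR) for the same contrast. Fos was higher in mesenchymal cells than hepatocytes by 3.27 ± 0.16 in TLH cells and 3.43 ± 0.27 in nuclei, and in Kupffer cells by 2.08 ± 0.24 and 2.96 ± 0.29 (all 4 called by edgeR). Endothelial cells were higher than hepatocytes too, by 1.27 ± 0.19 for Fos and 1.22 ± 0.31 for Fosb in TLH cells (both called; the Fosb call was lost without DA-1, at 1.09).

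Dusp1 and Jun ran the opposite way in TLH cells. Dusp1 was lower than in hepatocytes in all 5 other TLH gates, with log2 differences of -0.65 ± 0.08 in endothelial cells, -0.93 ± 0.09 in mesenchymal cells, -1.22 ± 0.13 in Kupffer cells, -1.24 ± 0.10 in myeloid cells and -1.52 ± 0.10 in NK/T cells (edgeR, all called). Jun was lower in all 5 as well, from -0.28 ± 0.10 in endothelial cells to -1.10 ± 0.16 in NK/T cells; its endothelial difference turned to 0.051 with library size alone, and the call was lost without LEW-1 (-0.24) or LEW-2 (-0.20). In nuclei the Dusp1 difference was called in mesenchymal cells alone (-0.87 ± 0.25, adjusted p = 0.0036, edgeR), with 1761, 2326, 1647 and 1707 CPM against 2556, 2864, 1652 and 3314 CPM in hepatocytes, and this call was lost without DA-1 (-0.84) or DA-2 (-0.91). Jund was called against hepatocytes in 1 gate, TLH myeloid cells, where its log2 difference was -0.33 ± 0.13, a call lost without DA-1 (-0.17), DA-2 (-0.33) or LEW-2 (-0.21).

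By count, TLH mesenchymal cells had 6 members higher than hepatocytes (Fos, Fosb, Egr1, Ier2, Junb, Zfp36) and 2 lower, where 12.5% of genes were higher and 10.9% lower. TLH Kupffer cells had 1 higher and 4 lower (23.8% and 25.4% of genes), endothelial cells 3 higher and 2 lower (19.8% and 20.5%), myeloid cells 1 higher and 4 lower (13.8% and 17.9%) and NK/T cells 0 higher and 4 lower (11.5% and 15.2%). In nuclei, Kupffer cells had 2 higher and 0 lower (10.4% and 11.3% of genes), endothelial cells 2 higher and 1 lower (16.7% and 16.7%) and mesenchymal cells 3 higher and 1 lower (10.3% and 11.0%). Calls in either direction fell in TLH mesenchymal cells from 8 to 5 without DA-2, in TLH endothelial cells from 5 to 3 without DA-1 and in TLH myeloid cells from 5 to 3 without either DA rat. In nuclei they fell from 2 to 1 in Kupffer cells without DA-1, from 3 to 1 in endothelial cells without LEW-2 (2 without DA-2) and from 4 to 2 in mesenchymal cells without either DA rat.

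**Figure D5:**
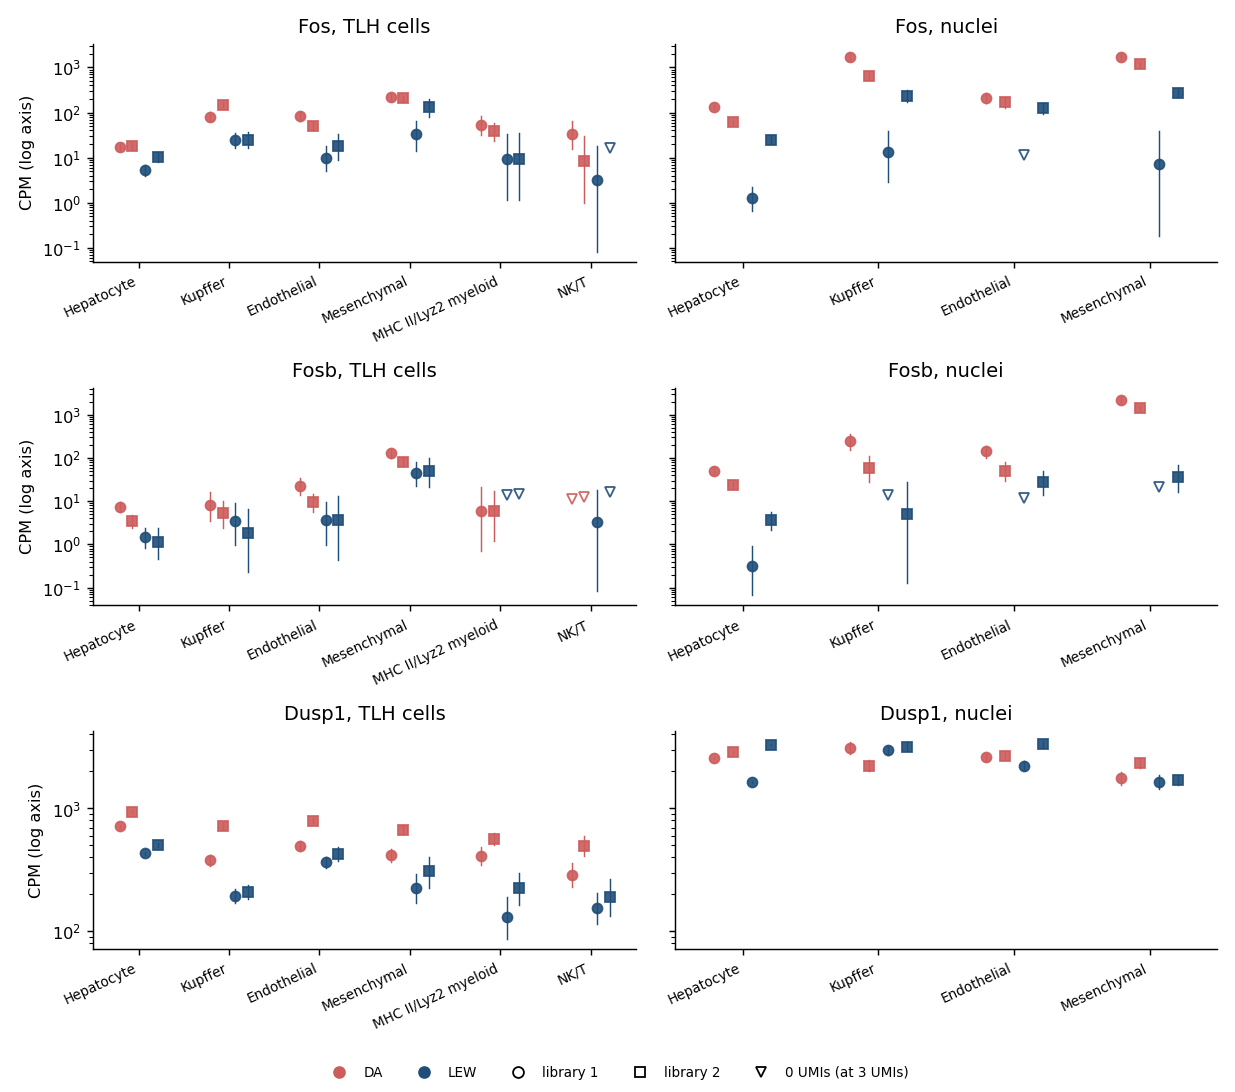
Levels of Fos, Fosb and Dusp1 (CPM, log axis) by gate in TLH cells and nuclei, with 95% Poisson intervals; an open triangle marks a library with 0 UMIs, drawn at the level of 3 UMIs. Fosb reaches 128 CPM in TLH mesenchymal cells and 2250 CPM in mesenchymal nuclei, while TLH Dusp1 is highest in hepatocytes, at 433 to 942 CPM.

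After thinning each cell to 1000 UMIs, which left out no tested cell, the mean number of the 10 genes found per cell was 1.36, 1.41, 0.705 and 0.955 in TLH hepatocytes and 1.97, 2.01, 0.964 and 2.77 in hepatocyte nuclei. Unthinned, the means were 2.20, 2.77, 1.43 and 1.88 in TLH cells and 2.79, 2.91, 1.44 and 3.82 in nuclei. In mesenchymal nuclei 48.3% and 35.9% of DA nuclei held 5 or more of the genes, against 3.12% and 11.8% of LEW nuclei, from 58, 78, 64 and 76 nuclei. Unthinned means there were 5.81, 4.99, 1.75 and 3.68 genes per nucleus.

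Position in the lobule was read from hepatocyte nuclei split into 3 equal parts by periportal and pericentral marker genes. The periportal part was also deeper in every rat. Its median was 2520 UMIs against 1304 in DA-1, 2862.5 against 1488.5 in DA-2, 1850 against 1400.5 in LEW-1 and 2331 against 1946 in LEW-2. The part of depth in the differences between the sides was not tested. By count, 1 of 10 members was higher on the periportal side and 1 lower, near the 7.31% and 13.3% of all genes. Atf3 was higher on the periportal side in each of the 4 rats, at 148 against 49.6 CPM in DA-1, 243 against 89.4 in DA-2, 17.0 against 6.28 in LEW-1 and 76.0 against 55.9 in LEW-2 (log2 difference 0.88 ± 0.20, adjusted p = 0.011, edgeR; 7.31% of genes higher). Fosb was lower there in each rat, at 30.7 against 41.6, 21.3 against 22.9, 0.279 against 0.697 and 1.04 against 5.47 CPM (-0.89 ± 0.28, adjusted p = 0.035, edgeR, beside 13.3% of genes lower). The DA-2 values were close to each other, and both LEW-1 values rest on few UMIs. The Atf3 call was lost without DA-2 (0.83), and the Fosb call without DA-1 (-0.86), DA-2 (-1.14) or LEW-2 (-0.76). On the sections, where a spot covers several cells, Dusp1 was higher in periportal than pericentral spots by a ratio of 1.16 and 1.26, Ier2 by 1.29 and 1.26, Jun by 1.21 and 1.20 and Zfp36 by 1.22 and 1.12, whereas Jund was lower, at 0.87 and 0.88. The Junb ratio was 1.30 in section 1, with a 95% counting interval of 0.996 to 1.69 that includes 1, and 1.60 in section 2. Junb, Ier2 and Dusp1 were higher as well in the fifth of spots richest in Kupffer markers, Junb by 1.54 and 1.26, Ier2 by 1.21 and 1.25 and Dusp1 by 1.06 and 1.08. The counting intervals of the other members included 1 in each section. These spot ratios have no test over animals.

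The mitochondrial share of a cell, a sign of its condition, moved with several members inside TLH hepatocytes. Cells above the median share of their library held more Dusp1, at 857 against 575 CPM in DA-1, 987 against 890 in DA-2, 467 against 397 in LEW-1 and 542 against 463 in LEW-2 (0.43 ± 0.11, adjusted p = 0.0024, edgeR; 17.1% of genes higher). Egr1 was higher as well (0.31 ± 0.10), while Fos (-0.53 ± 0.17), Atf3 (-0.43 ± 0.14) and Ier2 (-0.37 ± 0.11) were lower in cells with a high share (16.3% of genes lower). Without DA-1, 3 of the 5 were called. The median mitochondrial share of kept cells was 3.93%, 4.30%, 4.07% and 4.28% in the TLH libraries, and did not separate the strains.

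Over the 24 sums of 4 TLH libraries and 6 gates, the genes outside the group whose log2 level ran most like the mean of the members were Lyc2 (r = 0.827), Ccn1 (0.822), Cops9 (0.819), Sdc4 (0.813) and Cyp2c12 (0.809). The sums share libraries, so these are descriptions. Among the members, Zfp36 was closest to the mean (0.920) and Ier2 farthest from it (0.546), and each member is part of that mean.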

How the data were processed

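Single cells from total liver homogenate (TLH) and immune-enriched digests, nuclei and Visium sections of rat liver were analysed. The authors aligned reads with Cell Ranger 3.1.0 or Space Ranger 1.1.0 to a custom rat reference and the deposited values are UMI counts of each gene in each barcode, raw and before their cell filters. Genes of the TLH and immune-enriched matrices were named by row from the nuclei gene list.

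Cells were kept at a minimum of 1500 (TLH DA-1), 2000 (other TLH) or 1000 UMIs (nuclei, immune-enriched) and a mitochondrial maximum of 30%, 20%, 40% and 40% (TLH DA-1, DA-2, LEW-1, LEW-2), 50% (immune-enriched) or 10% (nuclei). Gates required 10 of 16 hepatocyte markers with at most 2 from any other list, 5 Kupffer, endothelial or mesenchymal markers, 4 myeloid, NK/T, B, plasmacytoid or erythroid markers, or 3 cholangiocyte markers, limits set with marker counts in hand. Cells passing more than 1 gate other than the hepatocyte and myeloid gates were dropped, which was the only doublet filter. A cell that passed the myeloid gate and 1 of these gates stayed in the latter. Hepatocyte markers were not limited outside the hepatocyte gate, so doublets with hepatocytes or myeloid cells could remain. Cells are not replicates, so UMIs were summed per rat and gate and tested with the quasi-likelihood test of edgeR 4.0.16 (R 4.3.3, TMM, robust dispersion, default filter on low counts, Benjamini-Hochberg over all genes, threshold 0.05); all adjusted p-values come from it unless DESeq2 1.42.0, an alternative, is named. Nothing states that all rats came from separate litters or days, so p-values measure the spread between libraries. Intervals on counts are exact 95% Poisson intervals and cover counting error only. A level at 0 UMIs allows up to 3 UMIs.

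The naming rule took the 10 members and, of other lists, up to 3 called genes with the largest change, though not every gene this rule picks is reported here. Members and lists were chosen with earlier results of these data known. Scripts were tested on simulated data. Alternatives were DESeq2 size factors, DESeq2, no filter, 1 more marker per gate, one cell filter for TLH, library size alone, mitochondrial genes left out, the replicate number as a block, and each library left out. Replicate numbers were not shown to pair rats: deviations of same-numbered libraries correlated at -0.193 (DA, TLH with nuclei), 0.0947 (LEW, TLH with nuclei), -0.138 (TLH, DA with LEW) and 0.0655 (nuclei, DA with LEW) over 11385 genes.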

Additional observations from a re-analysis of the deposited data

Results flagged for a closer look

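The strain difference differed between library kinds for 3 members, by the interaction of strain and kind in edgeR. In the Kupffer gate the difference between LEW and DA was more negative in TLH cells than in nuclei for Dusp1, with an interaction of -1.78 (log2, SE 0.38, adjusted p = 0.019), and for Zfp36, with -1.75 (SE 0.38, adjusted p = 0.020). In the mesenchymal gate the Fosb interaction was 5.19 (SE 0.82, adjusted p = 0.033), where LEW-1 nuclei held 0 Fosb UMIs, so that its size depends on the prior count. Over the fits that left out 1 library, the Dusp1 interaction ranged from -2.10 to -1.17 and the Fosb interaction from 4.40 to 10.8. No group had enough libraries for a check of single outlying libraries.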

How the results depend on the processing

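Over the 114 member calls, 1455 alternative values were computed: 1274 kept direction and side of the threshold, 178 lost the call and 3 reversed. All 3 reversals came with library size alone: Zfp36 in TLH Kupffer cells against hepatocytes (0.0018), Jun in TLH endothelial cells against hepatocytes (0.051) and Jund in nuclei against sections (0.11). The cause of the changes was not tested.

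Counts of members called moved by over 1.5 times as follows. For LEW against DA in TLH cells, hepatocytes (2 calls) had 5 with DESeq2, 1 with DESeq2 size factors, 7 with no filter and 1 with one cell filter. Endothelial cells (6) had 10 with no filter. Mesenchymal cells (4) had 2 with 1 more marker and 2 with DESeq2, myeloid cells (1) had 2 with 1 more marker and 4 with no filter, and NK/T cells (2) had 1 with 1 more marker, with DESeq2 size factors, with library size alone and with one cell filter, and 0 with DESeq2. In nuclei, hepatocytes (0) had 1 with DESeq2 or its size factors, and 2 with library size alone and with no filter. Kupffer nuclei (1) had 0 with 1 more marker and with DESeq2, and 2 with library size alone and with no filter. Endothelial nuclei (1) had 0 with 1 more marker and with DESeq2, and 2 with no filter. Mesenchymal nuclei (1) had 2 with 1 more marker and with no filter. TLH hepatocytes against nuclei (4) had 8 with library size alone and 9 with no filter. Against hepatocytes, TLH mesenchymal cells (8) had 5 and myeloid cells (5) had 3 with DESeq2; Kupffer nuclei (2) had 1 with 1 more marker, 1 with DESeq2 and 5 with library size alone, which gave endothelial nuclei (3) 5 as well. Whole TLH libraries against nuclei (4) had 7 with DESeq2 and 8 with library size alone, which gave 5 for TLH against sections (3) and 5 for immune-enriched against nuclei (3). DESeq2 gave 1 for lobule position (2) and 2 for mitochondrial share (5).

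With the replicate number as a block, which was not shown to pair rats, TLH myeloid cells had 4 calls in place of 1, hepatocyte nuclei 2 in place of 0, endothelial nuclei 0 in place of 1 and TLH hepatocytes against nuclei 7 in place of 4; the block moved no other count of member calls by over 1.5 times. Crossing the numbers, tried after seeing the data, gave 6 calls in TLH hepatocytes and 10 in mesenchymal cells between strains, and with DA numbers crossed 7 in TLH hepatocytes against nuclei. Library size alone for strains and gates and all interaction alternatives were also added after seeing the data.

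With each library left out, calls ranged as follows. Between strains, such a fit leaves 1 library in 1 strain, so its calls do not measure the spread between rats of that strain. LEW against DA in TLH cells gave 0 to 6 in hepatocytes, 5 to 7 in Kupffer, 2 to 7 in endothelial, 3 to 7 in mesenchymal, 1 to 3 in myeloid and 1 to 2 in NK/T cells. In nuclei it gave 0 to 2 in hepatocytes, 0 to 4 in Kupffer, 0 to 4 in endothelial and 1 to 7 in mesenchymal cells. TLH against nuclei gave 3 to 7, 7 to 9, 4 to 7 and 6 to 8 in the same order, and the interaction 0 to 0, 0 to 6, 0 to 1 and 0 to 1. Against hepatocytes, TLH Kupffer cells had 4 to 5, endothelial 3 to 5, mesenchymal 5 to 8, myeloid 3 to 5 and NK/T 4 to 4, and nuclei 1 to 2, 1 to 3 and 2 to 5. Whole libraries gave 4 to 7 for TLH against nuclei, 0 to 4 for TLH against sections, 4 to 9 for nuclei against sections, 2 to 4 and 0 to 3 for immune-enriched against nuclei and sections. Lobule position had 0 to 2 and mitochondrial share 3 to 5. In nuclei between strains, the highest count came without DA-1 in hepatocytes and without LEW-2 in the other gates, and the Kupffer call was lost without DA-1, where Fosb was no longer tested.

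Depth limits Fos, Fosb and Atf3 in small gates, down to 0 UMIs per library. Such genes were left untested where the filter removed them.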
